A study of Sus scrofa with 24 samples.

Results

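The genes described here move glucose into cells and split it to pyruvate and lactate. The list held 10 genes, the glucose transporters SLC2A4 and SLC2A1 and the enzymes HK2, GPI, PFKM, ALDOA, TPI1, PGK1, PKM and LDHA. Probes were taken by gene symbol or by the symbol of their RefSeq accession, which gave 8 genes with 22 probes. PKM was added through its older symbol PKM2 on 3 probes and through the description "pyruvate kinase, muscle" on 1 probe. ALDOA was matched to no probe and is not analysed here. That left 9 of the 5614 genes named on the array, measured by 26 of its 43603 probes. All 26 probes passed the filter on dim signal, and 23 were well above background on all 24 arrays, with 22 arrays as the lowest number for any of them.

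The study measured RNA of subcutaneous adipose tissue in pigs of 115 kg body weight from lines that differ in residual feed intake (RFI), feed eaten in excess of the amount predicted from growth and upkeep of the body. RFIneg pigs were of low RFI and ate freely. RFIplR pigs were of high RFI and were held to the feeding level of the RFIneg pigs, and RFIpl pigs were of high RFI and ate freely. Each group had 8 pigs and each pig 1 single-colour array. Age and sex are not given in the sources used here. RFIneg against RFIpl compares the lines under free feeding, RFIneg against RFIplR compares them at 1 feeding level, and RFIplR against RFIpl compares feeding levels at high RFI. The 2 comparisons against RFIpl share the same 8 RFIpl pigs.

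In fat cells, insulin brings the transporter GLUT4, the product of SLC2A4, to the cell surface, while GLUT1, the product of SLC2A1, carries a basal flow of glucose. Hexokinase traps glucose as its phosphate, and the enzymes that follow turn it into pyruvate, with phosphofructokinase and pyruvate kinase as controlled steps. In adipose tissue the pathway feeds both the glycerol backbone of stored fat and, through pyruvate, the building of fatty acids, and part of the pyruvate leaves as lactate.

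The probes of PKM and TPI1 carried the only calls among the 9 genes over all 24 arrays, in fits with a term for array brightness, so sequences of their probes are shown, each 60 bases long and read 5′ to 3′ from the array's own probe table. Of the 5 called probes 4 are shown, and the sequence of the called probe PKM 1973 is not shown. The number after the gene is the probe's start in its target transcript. The capitals mark the 23 bases that the 2 TPI1 probes share, so these 2 are not independent measurements. PKM 1383, which was not called, is shown because its level stood apart in 1 pig. The target of these probes is listed as unmapped in the files, and no genome position is given.
PKM 648: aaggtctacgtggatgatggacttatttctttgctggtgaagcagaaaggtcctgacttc
PKM 932: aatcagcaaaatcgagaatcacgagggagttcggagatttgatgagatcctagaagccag
PKM 1383: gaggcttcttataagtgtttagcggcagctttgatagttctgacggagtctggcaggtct
TPI1 468: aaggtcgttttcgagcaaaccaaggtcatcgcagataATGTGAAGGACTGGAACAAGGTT
TPI1 505: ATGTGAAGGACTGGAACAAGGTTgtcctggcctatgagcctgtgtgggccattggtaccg

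Levels below are log2 signals relative to the 75th percentile of each array, so 0 is that percentile, and each gene is given at its brightest probe. Levels of different probes are not set against each other, since probes bind with different strength. The arrays fell into 2 classes of brightness, with a 75th percentile of 414 to 662 units on 17 bright arrays and of 69.3 to 94.3 units on 7 dim arrays. The dim arrays were 2 of 8 in RFIneg, 3 of 8 in RFIplR and 2 of 8 in RFIpl. Between 43.1% and 79.9% of spots were well above background on an array, and no spot was saturated. Differences were tested with limma over all 28601 kept probes, with Benjamini-Hochberg adjustment and a threshold of 0.05, first with the groups alone and then with a term for the brightness class. In bulk tissue, fewer cells of a type and less RNA per cell cannot be told apart.

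With the groups alone, none of the 26 probes passed in any comparison, and the smallest adjusted p among them was 0.225. Unadjusted p-values under 0.05 came from 0 of 26 probes for RFIneg against RFIpl, 0 for RFIneg against RFIplR and 5 for RFIplR against RFIpl. Of all kept probes 6.87%, 2.12% and 8.2% were under that unadjusted limit in the same comparisons. Among all kept probes the adjusted threshold called 0.206% (59 probes), 0% (0 probes, 605 at an unadjusted p under 0.05) and 0.297% (85 probes) in these comparisons, and 0.276% (79 probes) for any difference among the groups. Once the brightness term was added, 5 of the 26 probes (19.2%) fell in RFIplR against RFIpl, 3 of PKM and 2 of TPI1. Of all kept probes, 10.3% were called there in either direction and 4.51% as lower in RFIplR. In RFIneg the term gave 0 of 26 probes against RFIpl, where 6.62% of all probes were called, and 0 of 26 against RFIplR, where 0% were called. By unadjusted p, 8 and 6 of the 26 probes were under 0.05 in these 2 comparisons, beside 22.8% and 9.49% of all kept probes. In RFIplR against RFIpl 8 of the 26 probes were under that unadjusted limit with the term, beside 7345 of the 28601 kept probes. Probes of 1 gene share their target, so the 5 calls stand for 2 of 9 genes.

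**Figure D1:**
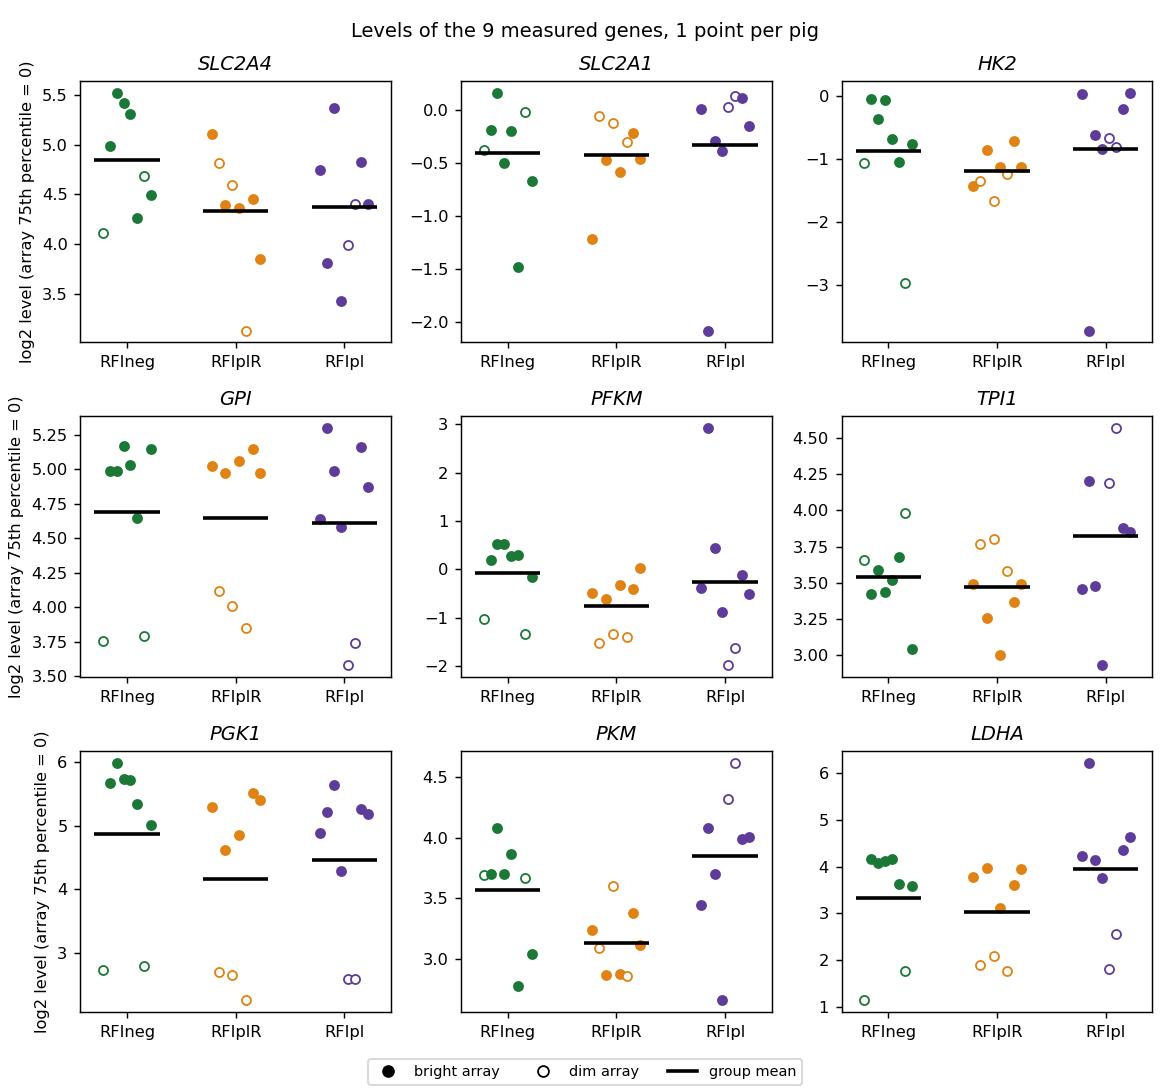
Log2 level of each of the 9 genes at its brightest probe (vertical axis, 0 is the array's 75th percentile) in RFIneg, RFIplR and RFIpl (8 pigs each). Filled points are bright arrays, open points dim arrays, bars group means. The 7 dim arrays lie below all 17 bright ones for GPI, PFKM, PGK1 and LDHA, and PKM lies between 2.86 and 3.60 in RFIplR.

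SLC2A4 encodes the insulin-responsive transporter. Its lowest, median and highest levels were 4.11, 4.83 and 5.52 in RFIneg pigs, 3.13, 4.42 and 5.11 in RFIplR pigs, and 3.43, 4.40 and 5.37 in RFIpl pigs. The groups overlapped over most of their range. RFIneg was higher by 0.51 (95% interval -0.10 to 1.12) than RFIplR and by 0.48 (-0.13 to 1.08) than RFIpl, with adjusted p-values of 0.999 and 0.960 by limma. RFIplR minus RFIpl was -0.03 (-0.64 to 0.57). The 3 SLC2A4 probes gave 0.05 to 0.51 for RFIneg minus RFIplR and 0.00 to 0.48 for RFIneg minus RFIpl. The larger values came from 1 probe, and the other SLC2A4 probes lay closer to 0.

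SLC2A1, the basal transporter, ran at -1.48, -0.29 and 0.16 (lowest, median, highest) in RFIneg pigs, -1.22, -0.38 and -0.06 in RFIplR pigs, and -2.08, -0.07 and 0.13 in RFIpl pigs. Most pigs of all 3 groups lay within 0.7 of 0, with 1 low pig in each group. Its differences were -0.08 (95% interval -0.66 to 0.49) for RFIneg minus RFIpl, 0.02 (-0.56 to 0.59) for RFIneg minus RFIplR and -0.10 (-0.67 to 0.48) for RFIplR minus RFIpl. Without RFIpl 2, the low RFIpl pig, the comparisons with RFIpl gave -0.33 (-0.77 to 0.10) for RFIneg and -0.35 (-0.79 to 0.09) for RFIplR.

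HK2, the insulin-regulated hexokinase of muscle and fat, had a lowest, median and highest level of -2.96, -0.72 and -0.04 in RFIneg pigs, -1.66, -1.19 and -0.72 in RFIplR pigs, and -3.72, -0.63 and 0.05 in RFIpl pigs. The value of -2.96, in RFIneg 7, was the only one of the 24 that was not well above background. The RFIplR pigs were the most alike, with an SD of 0.30, while 1 pig in each of the other groups lay far below the rest. RFIplR minus RFIpl was -0.34 (-1.24 to 0.56) and RFIneg minus RFIplR 0.32 (-0.59 to 1.22), and both intervals were wide and included 0. Both low pigs bear on these values. Without RFIpl 2, RFIplR minus RFIpl was -0.75 (-1.41 to -0.10, adjusted p = 0.488, limma) with the groups alone and -0.69 (-1.21 to -0.16, adjusted p = 0.0815) with the brightness term, and neither passed. RFIneg minus RFIpl was -0.03 with that pig and -0.44 (-1.09 to 0.22) without it. Without RFIneg 7, RFIneg minus RFIplR was 0.61 and RFIneg minus RFIpl 0.27.

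GPI converts glucose phosphate to fructose phosphate. Its levels were 3.76, 4.99 and 5.17 in RFIneg pigs, 3.85, 4.97 and 5.15 in RFIplR pigs, and 3.58, 4.75 and 5.30 in RFIpl pigs. Under the brightness term its intervals were the narrowest of the 9 genes. RFIneg minus RFIpl was then 0.08 (-0.13 to 0.29), RFIneg minus RFIplR -0.10 (-0.31 to 0.11) and RFIplR minus RFIpl 0.18 (-0.03 to 0.39).

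PFKM, the phosphofructokinase form that predominates in muscle, ran at -1.33, 0.23 and 0.53 in RFIneg pigs, -1.53, -0.56 and 0.02 in RFIplR pigs, and -1.99, -0.45 and 2.93 in RFIpl pigs. The value of -1.53, in RFIplR 2, was not well above background. The value of 2.93 belonged to the pig RFIpl 2, and the next RFIpl pig was at 0.44. Under the brightness term RFIneg minus RFIpl was 0.18 (-0.55 to 0.91, adjusted p = 0.810, limma). Without the array of RFIpl 2 it was 0.59 (0.26 to 0.92, adjusted p = 0.0343), at which PFKM was the only member probe called in that comparison, beside 5.16% of all probes called and 3.03% called as higher in RFIneg. On bright arrays the 6 RFIneg pigs ran from -0.15 to 0.53 and 5 RFIpl pigs from -0.88 to 0.44, and on dim arrays the 2 RFIneg pigs were at -1.33 and -1.02 against -1.99 and -1.63 in the 2 RFIpl pigs. The second PFKM probe, at 1847, gave 0.44 (0.09 to 0.79) in the same fit and was not called (adjusted p = 0.128).

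TPI1, triose phosphate isomerase, fell in RFIplR against RFIpl at 2 of its 5 probes once brightness was in the model. At its brightest probe, which starts at 747, the levels were 3.04, 3.55 and 3.98 in RFIneg pigs, 3.0, 3.49 and 3.80 in RFIplR pigs, and 2.93, 3.86 and 4.57 in RFIpl pigs. This probe was not called. At probe 505, which was, the RFIneg pigs had 2.26, 2.61 and 2.77, the RFIplR pigs had 1.92, 2.33 and 2.62 (lowest, median, highest), and the RFIpl pigs had 2.09, 2.96 and 3.51. All 8 RFIplR pigs were at or under 2.62, and 5 of 8 RFIpl pigs were above it. The difference was -0.53 (SE 0.16, adjusted p = 0.0374, limma), a level 1.44 times lower in RFIplR, and at probe 468 it was -0.55 (SE 0.17, adjusted p = 0.0408). The other 3 TPI1 probes gave -0.42 to -0.28 with adjusted p-values of 0.0629 to 0.345, and 2 of them hold the same sequence and differed by at most 0.0689 on any array. With the groups alone, all 5 TPI1 probes lay below 0 (-0.60 to -0.35) and none passed, with adjusted p-values of 0.278 at probe 468 and 0.282 at probe 505. The calls at 468 and 505 were each lost in 10 of 24 fits that left out 1 array, RFIpl 2, 5, 6, 7 or 8 or RFIplR 2, 3, 4, 5 or 6, with adjusted p-values up to 0.111 and 0.0999.

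PGK1 makes the first ATP of the pathway. Its levels were 2.73, 5.50 and 5.99 in RFIneg pigs, 2.25, 4.74 and 5.52 in RFIplR pigs, and 2.58, 5.03 and 5.64 in RFIpl pigs. The low end of each group was its dim arrays, and the brightness term narrowed the interval of RFIneg minus RFIpl to 0.07 to 0.77 around 0.42, from -0.88 to 1.72 without it. That difference had an adjusted p of 0.139, and RFIneg minus RFIplR was 0.39 (0.03 to 0.74, adjusted p = 0.483). All 6 PGK1 probes were above 0 in both comparisons, with 0.39 to 0.55 and 0.30 to 0.46, and none passed. RFIplR minus RFIpl ran from -0.05 to 0.13 over the 6 probes.

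PKM, pyruvate kinase of muscle and most other tissues, gave the smallest adjusted p among the 9 genes. At its brightest probe, which starts at 1973, the levels were 2.78, 3.70 and 4.08 in RFIneg pigs, 2.86, 3.10 and 3.60 in RFIplR pigs, and 2.66, 4.0 and 4.62 in RFIpl pigs. Of the RFIpl pigs 7 lay between 3.45 and 4.62 and 1 at 2.66, and of the RFIplR pigs 7 lay at or under 3.38. The groups overlapped through these single pigs. The mean was 3.13 ± 0.27 in RFIplR and 3.85 ± 0.60 in RFIpl (SD, n = 8 each). At probe 648 the levels were 1.17, 1.81 and 2.08 in RFIneg pigs, 1.02, 1.37 and 2.06 in RFIplR pigs, and 0.77, 2.20 and 3.17 in RFIpl pigs, with RFIpl 4 again the lowest pig of its group.

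With the brightness term PKM fell in RFIplR against RFIpl by 0.77 at probe 1973 (SE 0.21, adjusted p = 0.0232, limma), by 0.86 at probe 648 (SE 0.21, adjusted p = 0.0112) and by 0.77 at probe 932 (SE 0.22, adjusted p = 0.0324). This is a level 1.70, 1.82 and 1.70 times lower in RFIplR. The dimmest PKM probe, at 1383, gave -0.67 (SE 0.42, adjusted p = 0.329). With the groups alone the same 4 PKM probes gave -0.80 to -0.70, and none passed, with an adjusted p of 0.225 at probe 1973. Probe 648 was also the only member probe for which any difference among the 3 groups passed with the term (adjusted p = 0.0272, beside 9.02% of all probes). RFIneg stood between the other groups at 3.57 ± 0.43 (SD, n = 8), with RFIneg minus RFIplR at 0.48 (0.05 to 0.92, adjusted p = 0.475) and RFIneg minus RFIpl at -0.29 (-0.72 to 0.15, adjusted p = 0.440).

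The size of the PKM difference is given by brightness class, and the difference between the classes was not tested. On dim arrays the 3 RFIplR pigs had 2.86, 3.09 and 3.60 at probe 1973, against 4.32 and 4.62 in the 2 RFIpl pigs. On bright arrays the 5 RFIplR pigs had 2.87 to 3.38, against 2.66 to 4.08 in the 6 RFIpl pigs. In fits of each class alone probe 1973 gave -1.28 (-1.89 to -0.68) on dim arrays and -0.55 (-1.10 to -0.0044) on bright ones. No member probe passed in either class, where 0% and 3.29% of all probes were called. Within slides that held both groups, RFIplR minus RFIpl was below 0 on 5 of 5 slides for PKM (-1.02 to -0.07) and on 5 of 5 for TPI1 (-0.71 to -0.09). Between arrays of 1 class on the same slide it was below 0 on 4 of 4 slides for PKM (-0.99 to -0.07) and for TPI1 (-0.71 to -0.09). Without regard to class, a slide could set 2 RFIplR pigs against 1 RFIpl pig. Within class, each of the 4 slides set 1 RFIplR pig against 1 or 2 RFIpl pigs. On 1 of them RFIplR 1 stood against RFIpl 2, with PKM at 3.24 and 4.08. In that pair TPI1 was at 3.49 and 4.20, which gave the -0.71. By scan day the PKM value was -0.68 with 3 pigs against 3, -0.73 with 4 against 4 and -0.84 with 1 against 1. The last value is again the pair RFIplR 1 and RFIpl 2. RFIpl 2 had the highest level of muscle markers (log2 sum 10.53, described further below). RFIneg minus RFIpl was also mostly below 0 within slides. Between arrays of 1 class it was below 0 on 5 of 5 slides for PKM (-1.08 to -0.00) and 4 of 5 for TPI1 (-0.62 to 0.02). Without regard to class it was below 0 on 4 of 5 slides for PKM and 3 of 5 for TPI1.

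**Figure D2:**
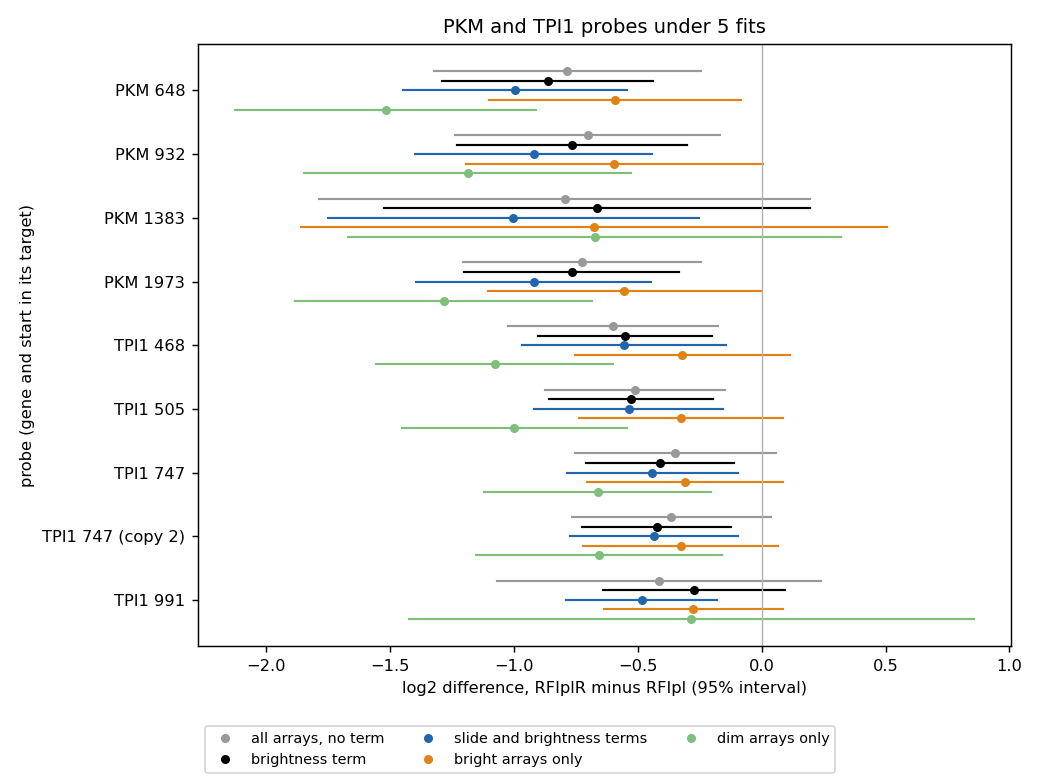
Log2 difference of RFIplR minus RFIpl with its 95% interval (horizontal axis) for the 4 PKM and 5 TPI1 probes, under 5 fits. Every point lies below 0, the dim arrays give the largest differences at PKM 648 (-1.52), and intervals that clear 0 are fewer on bright arrays alone.

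Leaving out 1 array at a time under the brightness term, 1 to 7 of the 26 probes were called in RFIplR against RFIpl, with 1 without RFIpl 5 or RFIpl 6 and 7 without RFIpl 4. Of these fits, the share of all kept probes called is given only for that without RFIpl 2. The other counts therefore cannot be set against the background. PKM 648 was called in 24 of 24 such fits (adjusted p 0.00110 to 0.0320) and PKM 1973 in 22, with its call lost without RFIpl 5 (adjusted p up to 0.0619) or RFIpl 6, the 2 dim arrays of that group. PKM 932 was called in 18, and lost without RFIpl 2, RFIpl 5, RFIpl 6, RFIpl 8, RFIplR 5 or RFIplR 6. Without the array of RFIpl 2 the count was 2 of 26 probes, both of PKM, beside 10.9% of all probes called and 5.33% called as lower in RFIplR. In that fit any difference among the 3 groups passed for 3 of 26 probes, beside 7.96% of all probes. With slide and brightness as 2 terms it was 3, all of PKM, beside 5.9% of all probes, and with slide or scan day alone it was 0, beside 0.0874% and 0.902%.

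LDHA turns pyruvate to lactate. Its levels were 1.14, 3.86 and 4.17 in RFIneg pigs, 1.77, 3.37 and 3.98 in RFIplR pigs, and 1.80, 4.18 and 6.23 in RFIpl pigs. The value of 6.23 was again RFIpl 2, and the dim arrays of all groups ran from 1.14 to 2.56. In the fit with the brightness term RFIplR minus RFIpl was -0.66 (-1.19 to -0.13, adjusted p = 0.101) and RFIneg minus RFIpl -0.63 (-1.16 to -0.10, adjusted p = 0.140), and neither passed. Without RFIpl 2 the same fit gave -0.43 (-0.79 to -0.06, adjusted p = 0.121) and -0.38 (-0.74 to -0.02, adjusted p = 0.209). RFIneg minus RFIplR was 0.04 (-0.50 to 0.57).

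**Figure D3:**
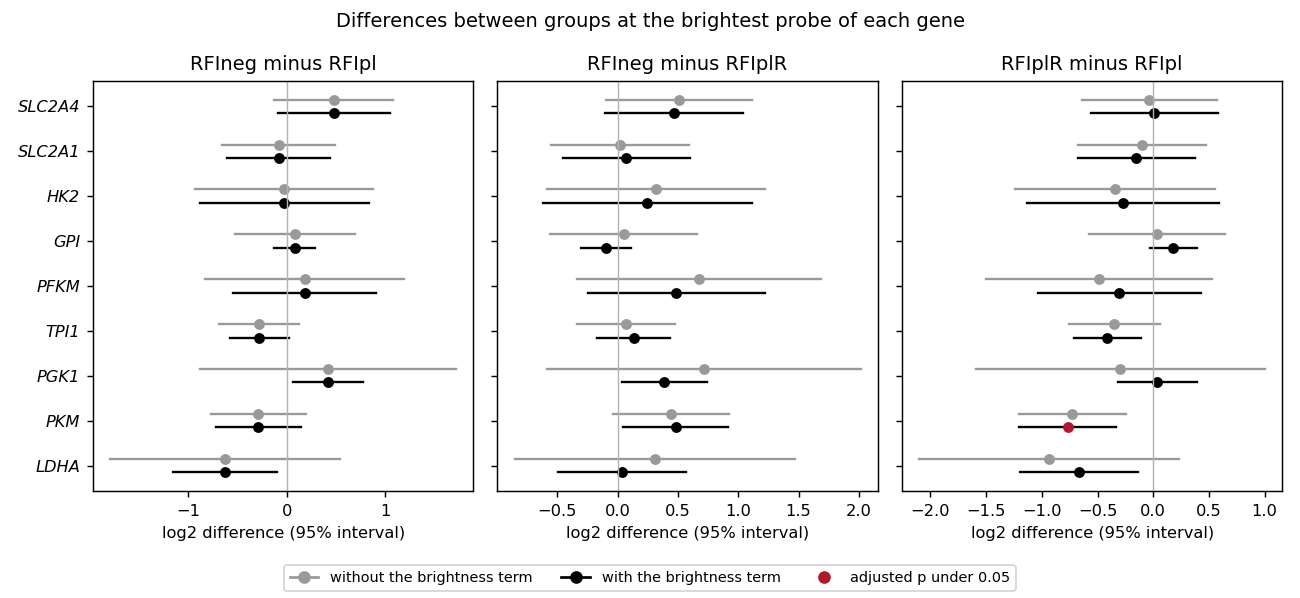
Log2 differences at the brightest probe of each gene with 95% intervals (horizontal axis) in the 3 comparisons, without (grey) and with (black) the brightness term. The red point, PKM in RFIplR minus RFIpl at -0.77, is the only one past an adjusted p of 0.05, and the term narrows the intervals of GPI, PGK1 and LDHA.

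Over the 9 genes, the median difference with the brightness term was -0.03 for RFIneg minus RFIpl, 0.25 for RFIneg minus RFIplR and -0.27 for RFIplR minus RFIpl. Over all kept probes the medians were -0.01, 0.02 and -0.02. Without RFIpl 2 the medians of the 9 genes were -0.21, 0.22 and -0.34, so the first of them rests on 1 pig. In RFIplR 6 of the 9 genes were below RFIpl and 3 above, and in RFIneg 8 of 9 were above RFIplR. These counts include genes whose intervals span 0.

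The other genes of glucose handling were taken as 1 list of 46, of which 25 had a named probe and 21 genes with 63 probes were kept. With the groups alone 0 of the 63 probes passed in any comparison (limma, 4, 0 and 3 at an unadjusted p under 0.05 for RFIneg against RFIpl, RFIneg against RFIplR and RFIplR against RFIpl, beside 6.87%, 2.12% and 8.2% of all kept probes). When the brightness term was added, 3 of 63 rose in RFIneg against RFIpl, 0 passed between RFIneg and RFIplR, and 1 rose and 1 fell in RFIplR against RFIpl. Of all kept probes 4.31% rose in RFIneg against RFIpl, 0% passed between RFIneg and RFIplR, and 5.82% rose and 4.51% fell in RFIplR against RFIpl, so the list's counts were near or below the background.

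SLC2A12, which encodes the transporter GLUT12, rose in RFIneg and in RFIplR against RFIpl. Both comparisons use the same RFIpl pigs. Its lowest, median and highest levels were -0.95, 0.52 and 1.08 in RFIneg pigs, -1.47, 0.11 and 0.88 in RFIplR pigs, and -2.01, -0.96 and 0.72 in RFIpl pigs. Only the pig RFIpl 3, at 0.72, exceeded the RFIneg median among RFIpl pigs. With the brightness term the difference was 1.27 for RFIneg minus RFIpl (SE 0.25, adjusted p = 0.00543, limma) and 1.14 for RFIplR minus RFIpl (SE 0.25, adjusted p = 0.00662). With the groups alone these were 1.27 (adjusted p = 0.219) and 0.99 (adjusted p = 0.366). Each of the 2 calls held in 24 of 24 fits that left out 1 array under the term. Neither passed with a slide term alone (1.10 and 0.99, adjusted p = 0.385 and 0.380), with a scan day term alone (1.05 and 0.99, adjusted p = 0.200 and 0.162), on bright arrays alone (1.22 and 1.08, adjusted p = 0.0526 and 0.0618) or on dim arrays alone (1.43 and 1.31, adjusted p = 0.482 and 0.227). In these 4 fits 0 of the 63 probes of the list passed in any comparison. Of all probes, 0%, 0.164%, 1.03% and 0% passed for RFIneg against RFIpl. For RFIplR against RFIpl the shares were 0.0874%, 0.902%, 3.29% and 0%, and no probe passed between RFIneg and RFIplR. Within slides the difference was above 0 on 5 of 5 slides for RFIneg minus RFIpl (0.33 to 2.38) and on 4 of 5 for RFIplR minus RFIpl (-0.47 to 2.46). Slides could hold both brightness classes, and SLC2A12 was 1.21 lower on dim arrays, averaged over the groups. The value of -0.47 set 2 dim RFIplR arrays against 1 bright RFIpl array. Between arrays of 1 class on the same slide, RFIplR minus RFIpl was 0.00, 0.97, 1.65 and 2.46 on the 4 slides that had both. With slide and brightness as 2 terms both calls held, at 1.34 (adjusted p = 0.0483, beside 1.44% of all probes called) and 1.16 (adjusted p = 0.0411). The SLC2A12 probe was named from its description in the files.

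ALDOC, the only aldolase kept, rose in RFIneg against RFIpl by 0.85 with the term (SE 0.24, adjusted p = 0.0331, limma). Its levels were 7.25, 7.67 and 7.92 in RFIneg pigs and 5.65, 6.83 and 7.91 in RFIpl pigs, and the call was lost in 8 of 24 fits that left out 1 array, RFIpl 2 among them. The lactate and pyruvate transporter SLC16A1 rose in RFIneg against RFIpl by 0.72 at 1 of its 7 probes (SE 0.19, adjusted p = 0.0270), a call lost in 7 of 24 such fits, again with RFIpl 2 among them. SLC16A7, a related transporter, fell in RFIplR against RFIpl by 0.64 (SE 0.17, adjusted p = 0.0169), in 24 of 24 such fits. The RFIplR pigs ran at -0.63, -0.31 and 1.41 against -0.64, 0.40 and 2.20 in RFIpl, and the groups overlapped. Within slides SLC16A7 was lower in RFIplR on 3 of 5 slides (-1.93 to 0.79), but this probe was 1.69 higher on dim arrays, and both end values came from slides that set arrays of unlike brightness against each other. Between arrays of 1 class on the same slide it was lower on 3 of 4 slides (-1.08 to 0.20). With slide and brightness as 2 terms none of these 3 genes passed, with 0.86 for ALDOC (adjusted p = 0.110), 0.80 for SLC16A1 (adjusted p = 0.0733) and -0.62 for SLC16A7 (adjusted p = 0.0577).

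Among genes of the steps between, GAPDH had median levels of 8.33, 8.32 and 8.37 in RFIneg, RFIplR and RFIpl and no call in any comparison. ENO3, the muscle enolase, ran up to -0.40 in RFIneg, -1.14 in RFIplR and 6.37 in RFIpl, with no call. PGAM2, the muscle phosphoglycerate mutase, did not pass the filter, and PYGM, the muscle glycogen phosphorylase, was matched to no probe.

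The high RFIpl values of ENO3, PFKM and LDHA were all in RFIpl 2. Of 15 muscle markers 9 were kept, and the log2 of their summed level ran from 3.70 to 4.73 in RFIneg, from 3.66 to 5.08 in RFIplR and from 3.90 to 10.53 in RFIpl, where RFIpl 2 had 10.53, RFIpl 1 5.46 and none of the other 6 as much. The myosin MYH4, which did not pass the filter, was at 8.04 in RFIpl 2 and at most at 2.43 on the other 16 bright arrays. PGAM2 was at 5.30 in RFIpl 2, against -6.35 to -1.41 on those arrays. The fat cell markers were all 7 kept, with sums of 9.84 to 10.37 in RFIneg, 9.67 to 10.28 in RFIplR and 9.44 to 10.32 in RFIpl, and ADIPOQ and FABP4 were well above background on all 24 arrays. In RFIpl 2 some of them lay below the other 16 bright arrays. PLIN1 was at 1.41 there against 1.52 to 2.48, LEP at -0.06 against 0.51 to 3.94, and PPARG at 4.69 against 5.04 to 5.93. ADIPOQ, FABP4, CIDEC and LIPE lay within the range of those arrays. Sums of 4 endothelial markers were 5.88 to 6.34, 5.76 to 6.53 and 5.23 to 6.10 in RFIneg, RFIplR and RFIpl. For 2 of 4 macrophage markers they were 0.67 to 3.03, 0.80 to 3.13 and 1.25 to 3.23. For 2 of 4 keratinocyte markers they were -2.12 to -0.64, -1.80 to 0.18 and -1.83 to 5.86. The RFIpl median was -0.64, and the 5.86 was in an RFIpl pig other than RFIpl 1 and RFIpl 2. None of 4 red cell markers was on the array by name. The part of other cell types in the PKM and TPI1 differences was not tested beyond leaving out arrays.

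Some of the 9 genes set RFIpl 2 apart, in opposite directions. PFKM was at 2.93 there against -0.88 to 0.53 on the other 16 bright arrays, and LDHA at 6.23 against 3.11 to 4.64. SLC2A1 was at -2.08 against -1.48 to 0.16, and HK2 at -3.72 against -1.43 to 0.05. TPI1 lay above all other bright arrays at each of its 5 probes by 0.74 to 0.87 over their mean, and PGK1 lay within their range at all 6. GPI lay above them at each of its 3 probes, by 0.34 to 0.66 over their mean. SLC2A4 lay within their range at its brightest probe (3.81 against 3.43 to 5.52) and at probe 433. At probe 1179 it lay below them (-0.92 against -0.50 to 0.92). Among the PKM probes, 1383 stood 3.34 above the mean of the other bright arrays in RFIpl 2, while 648, 932 and 1973 stood 0.74, 1.04 and 0.68 above it. The probes of this gene did not move alike in this pig.

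**Figure D4:**
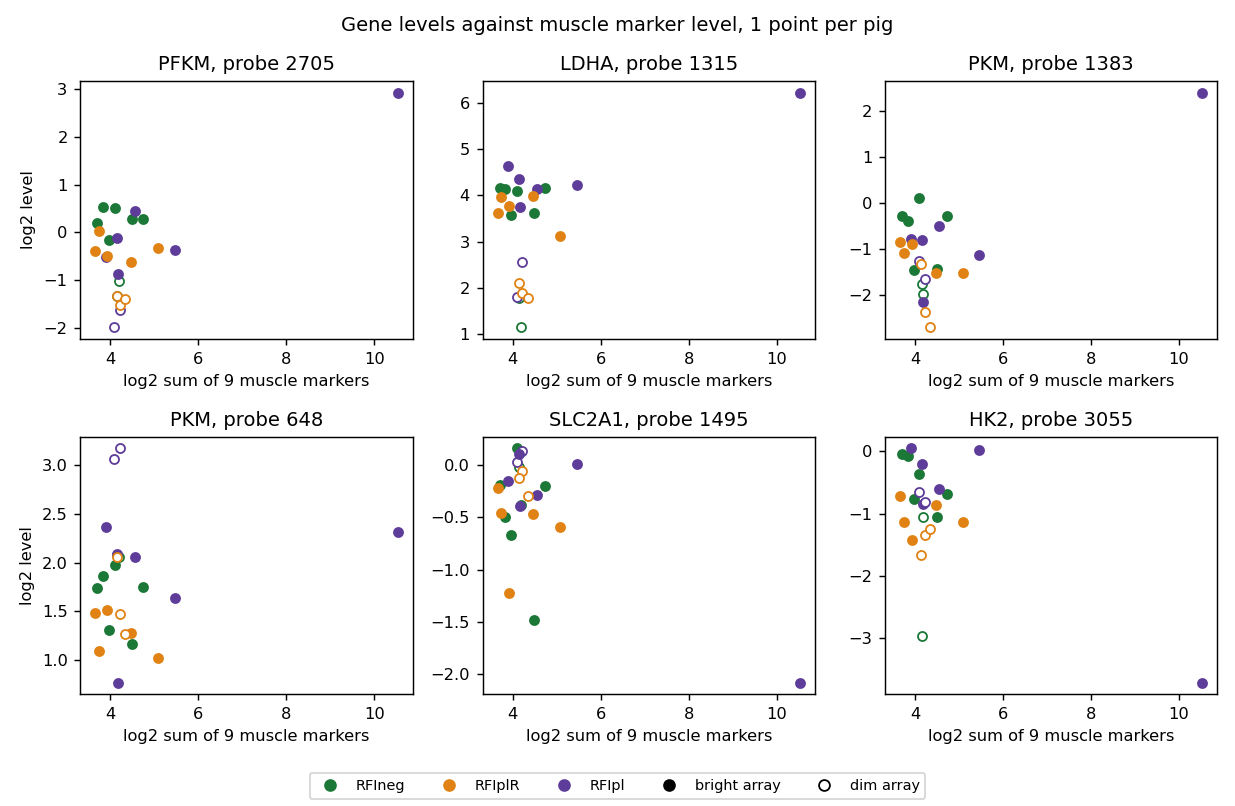
Log2 level of 6 probes (vertical axis) against the log2 summed level of the 9 kept muscle markers (horizontal axis), 1 point per pig, filled for bright and open for dim arrays. The single point at 10.53 is RFIpl 2, highest for PFKM, LDHA and PKM 1383 and lowest for SLC2A1 and HK2, and it lies within the range of the other pigs for PKM 648.

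At the brightest probe of each gene, the difference between the brightness classes was unequal among the genes. Averaged over the groups, dim minus bright was -2.64 for PGK1, -2.22 for LDHA, -1.52 for PFKM and -1.18 for GPI, and the dim arrays lay below every bright array at these 4 probes. It was 0.50 for TPI1, 0.42 for SLC2A1, 0.35 for PKM, -0.36 for SLC2A4 and -0.58 for HK2, with overlapping ranges. Over all kept probes the median shift was -0.046, with the 25th and 75th percentiles at -1.03 and 1.26. Other probes of the same genes differed from this. PFKM 1847 ran from -1.40 to -0.82 on dim and -2.64 to 1.17 on bright arrays, and GPI 790 from -0.92 to -0.51 and -0.80 to 0.34, both with overlap, while GPI 1652 ran from 1.92 to 2.29 and 3.34 to 4.18 with none. Among the 6 PGK1 probes dim minus bright ran from -2.64 to -0.03, with overlap at probes 326 and 1672. TPI1 991 stood at -1.12 with no overlap, while its gene's brightest probe was at 0.50. For PKM 1973 the shift ran from 0.09 in RFIplR to 0.82 in RFIpl.

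**Figure D5:**
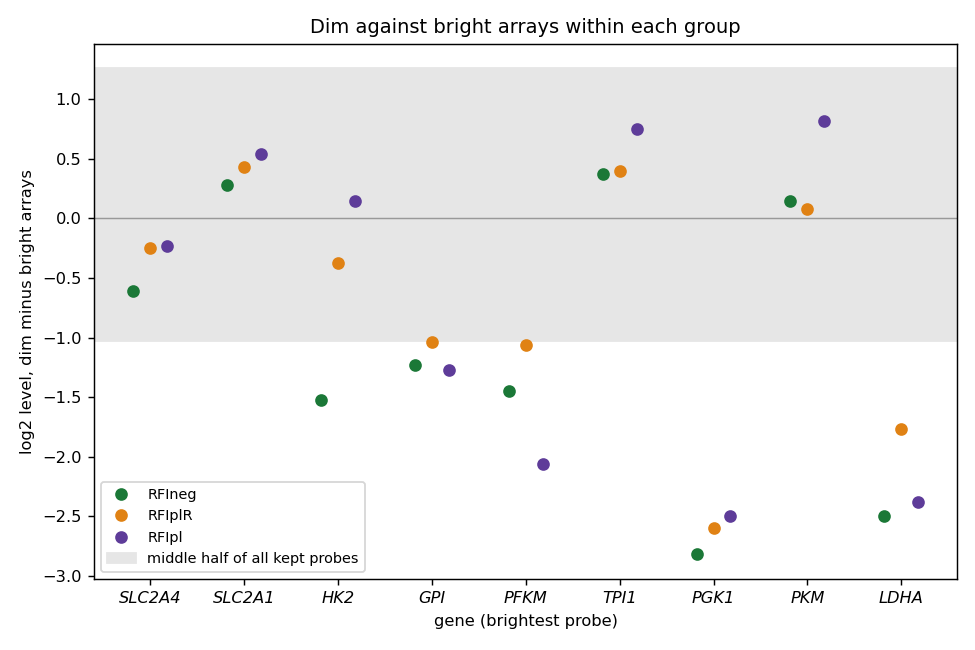
Mean log2 level on dim minus bright arrays (vertical axis) for each gene, 1 point per group, with the span from the 25th to the 75th percentile of all kept probes shaded (-1.03 to 1.26). PGK1 and LDHA lie furthest below the shaded range, and the groups lie close together for GPI, PGK1 and SLC2A1.

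After the mean of each brightness class was subtracted, some genes varied together over the 24 arrays. These correlations describe arrays that share labelling and scaling, and they carry no test. TPI1 had a Pearson r of 0.78 with PKM and 0.77 with LDHA, and these stayed at 0.77 and 0.71 over 23 arrays without RFIpl 2. SLC2A4 and PGK1 had 0.71, and 0.73 without that array. PFKM and LDHA had 0.67, and 0.06 without it, while HK2 and LDHA had -0.41, and 0.41 without it. SLC2A1 and LDHA had -0.28, and 0.52 without it, so the sign of both these pairs turned on 1 pig.

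The named genes most alike to each member, by the same correlation, are given as 2 per member. They are the highest r among 9995 candidate probes of 4310 genes, picked from these same arrays. For PKM they were NDUFC1 (r = 0.84), a subunit of respiratory complex I, and ATP5I (0.82), a subunit of ATP synthase. NDUFC1 was also most alike to TPI1 (0.82), followed by the RNA helicase DDX39B (0.75). For SLC2A4 they were SDHB (0.84), a subunit of succinate dehydrogenase, and ACSS2 (0.83), an acetyl-CoA synthetase. For HK2 they were MLXIPL (0.87), the carbohydrate-responsive transcription factor ChREBP, and SQLE (0.86), a cholesterol synthesis enzyme, at 0.76 each without RFIpl 2. For SLC2A1 they were TXNRD1 (0.88) and MRPL43 (0.85), at 0.79 and 0.78 without RFIpl 2. For GPI they were PRKAA2 (0.72) and TFB1M (0.71), and for PGK1 VPS28 (0.91) and BRP44 (0.89). PFKM was most alike to GAPDH (0.86) and SLC5A10 (0.85), and LDHA to EGF (0.88) and the muscle AMP deaminase AMPD1 (0.85). The values of PFKM and LDHA fell to between 0.54 and 0.67 without RFIpl 2.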

How the data were processed

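RNA from 24 pigs was measured on single-colour (Cy3) Agilent arrays, and the deposited scanner files hold the intensity of each spot as the authors' Feature Extraction software (version 10.7.3.1, per the file headers) gave it, with background already subtracted in the processed signal. The deposited value table holds log2 values of the authors, centred per array to a median near 0, and the submitters' processing notes list R 2.10.0. Further steps of the authors are not given in the sources used here. Genome build is likewise not given, so no positions are printed.

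From the intensities, log2 processed signal minus the 75th percentile of each array was computed over non-control spots without outlier flags, with the mean taken over spots of the same probe. Probes had to be well above background on at least 6 of 8 arrays of a group and missing on at most 6 arrays (28601 of 43603 passed). One limma fit (3.58.1, R 4.3.3) over the 24 arrays gave the 3 comparisons and an F-test, two-sided, with Benjamini-Hochberg adjustment. The number of arrays limits the precision. Brightness class was split at the largest gap in the arrays' 75th percentiles, and slide and scan day came from the file headers. Python 3.11.15 with pandas 2.3.3 made the summaries, and the fit was tested on simulated data.

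The text names each listed gene at its kept probe of highest mean signal, every other pathway gene past the threshold with or without the brightness term, the muscle forms PGAM2, ENO3 and PYGM with GAPDH, and the 2 most correlated genes per member. Alternatives were blocks for brightness, slide, scan day and replicate number, other background correction, scaling and filters, the deposited table, subsets of arrays and each array left out. Fits without single arrays under the brightness term, single scan days, slide with brightness, and differences within slide and brightness class were added after seeing the data. The genes and lists were chosen with earlier results of these data known. Of 43603 probes, 12464 had 1 symbol.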

Additional observations from a re-analysis of the deposited data

Results flagged for a closer look

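Values were looked at again where 1 of the 8 pigs of a group lay apart from the rest. The limit was Dixon's 95% limit for the gap over the group's range. Chance gives such a gap in about 1 of 20 groups drawn from 1 normal distribution. The groups here mixed bright and dim arrays, so that rate need not hold and values can go unmarked. PFKM at 2.93 and LDHA at 6.23 in RFIpl 2 were not marked. Of 45 gene and group pairs, 5 values were so marked. In RFIpl the pig RFIpl 2 had 3 of them, SLC2A1 at -2.08 with the next pig at -0.39, HK2 at -3.72 with the next at -0.84, and ENO3 at 6.37 with the next at 0.73. In RFIplR the pig RFIplR 1 had SLC2A1 at -1.22 with the next at -0.59. In RFIneg the pig RFIneg 7, on a dim array, had HK2 at -2.96 with the next at -1.06, and this was the only array on which HK2 was not well above background.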

How the results depend on the processing

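The count of member probes called was 0 without a brightness term in all 3 comparisons and in the F-test under the slide, scan day and replicate blocks, normexp, quantile and median scaling, both filters, the deposited table, bright or dim arrays alone, scan days 1 and 2 alone, without RFIpl 1 and RFIpl 2, and with any 1 array left out. The pathway count was 0 likewise under the slide and scan day blocks and on bright or dim arrays alone. The replicate numbers are shared by the groups, and the labels state no pairing of pigs. Same-numbered deviations from the group means had a median correlation of -0.0807, over 0.1 in 12 of 24 pairs. Brightness class was not removed from these deviations, so they cannot decide whether the numbers pair the pigs. The replicate block gave 0 member probes and 0 other pathway probes. Signal over background limits 3 member probes, HK2, PFKM and PKM 1383, which were well above background on 22 or 23 of 24 arrays.

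With the brightness block the member count was 0, 0 and 5 for RFIneg against RFIpl, RFIneg against RFIplR and RFIplR against RFIpl and 1 in the F-test, and the pathway count 3, 0 and 2. With that block and RFIpl 2 left out the member count was 1, 0 and 2, with 3 in the F-test (7.96% of all probes), and the pathway count 1, 0 and 2. With slide and brightness as blocks it was 0, 0 and 3 with 1 in the F-test for members and 1, 0 and 1 for the pathway. Of all 28601 kept probes, 412, 0 and 1688 were called in that fit, and 972 in its F-test. Under the brightness block, leaving out 1 array gave 1 to 7 member probes for RFIplR against RFIpl. The lowest count came without RFIpl 5 or RFIpl 6, and the count was 2 without RFIpl 2, RFIpl 8, RFIplR 5 or RFIplR 6 and 3 without RFIpl 7, RFIplR 2, RFIplR 3 or RFIplR 4. Without the block, leaving out RFIpl 3 gave 2 pathway probes for RFIneg against RFIpl, SLC2A12 and ALDOC, and other arrays gave 0, a range of 0 to 2. The cause was not tested. Among fits with 1 array left out, the share of all kept probes is given only for that without RFIpl 2 under the block.

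Of 1333 single-gene values under alternatives, 85 turned sign, none of them past the threshold (smallest adjusted p 0.331), 16 passed where the main value did not, and 1232 kept sign and side. For RFIneg minus RFIpl the turned values were -0.17, -0.13, -0.01 and -0.49 for GPI (slide block, scan day block, quantile, scan day 2 alone), 0.06, 0.02 and 0.39 for HK2 (normexp, median scaling, bright arrays), -0.14, -0.07, -0.03 and -0.02 for PFKM (slide, scan day, normexp, scan day 2), -0.14, -0.07 and -0.92 for PGK1 (slide, scan day, scan day 2) and -0.02 for SLC16A1 (scan day 2). For RFIneg minus RFIplR they were -0.10 for GPI with the brightness block, with or without RFIpl 2, and -0.13, -0.17, -0.04, -0.04, -0.22, -0.06, -0.46 and -0.06 with slide, scan day, quantile, bright arrays, dim arrays, scan day 1, scan day 2, and slide with brightness. There too HK2 had -0.60 and -0.67 (dim arrays, scan day 2), LDHA -0.05, -0.09, -0.46 and -0.97 (slide, scan day, dim arrays, scan day 2), PFKM -0.12 and PGK1 -0.49 (scan day 2), and SLC2A1 -0.06, -0.04 and -0.18 (normexp, dim arrays, scan day 1). For RFIplR minus RFIpl GPI had -0.04, -0.25, -0.08 and -0.03 (slide, normexp, mean of probes, scan day 2), PFKM 0.39, 0.02, 0.08 and 0.10 (dim arrays, without RFIpl 1 and RFIpl 2, brightness block without RFIpl 2, scan day 2), PGK1 0.03, 0.06 and 0.05 (brightness block, bright arrays, brightness block without RFIpl 2), and SLC2A4 0.01 and 0 (brightness block, bright arrays). With 1 array left out the ranges that crossed 0 were -0.07 to 0.21, -0.07 to 0.18 and -0.11 to 0.15 for GPI in the 3 comparisons, -0.44 to 0.27 for HK2 and -0.06 to 0.64 for PFKM in RFIneg minus RFIpl, -0.33 to 0.07, -0.09 to 0.17 and -0.35 to 0.01 for SLC2A1, and -0.17 to 0.14 for SLC2A4 in RFIplR minus RFIpl.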
